A study of Homo sapiens with 6 samples.

Results

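The genes examined were 9 that have been reported to help cancer cells to cross the blood-brain barrier or to grow in the brain, namely L1CAM, ST6GALNAC5, PTGS2, PCDH7, GJA1, ANGPTL4, LEF1, CXCR4 and LCN2. They were chosen by gene symbol, and all 9 were present among the 58735 genes of the table. The cells, PC9-BrM3, descend from the human lung adenocarcinoma line PC9, which had been passed repeatedly through immunodeficient mice and recovered from their brain metastases. In 3 libraries AKR1B10, which encodes an aldo-keto reductase that reduces aldehydes and ketones, was silenced by a lentiviral shRNA (BrM3-shAKR1B10), and in 3 libraries the same cells carried a negative control shRNA (BrM3-shNC). All 6 libraries are labelled as routine culture of this line, so that the comparison asks whether silencing AKR1B10 changed the mRNA of these mediators in the tumor cells themselves. Each group is 1 line with 1 shRNA, and where the labels do not say that replicates were separate cultures, p-values measure only the spread between these libraries, which may be technical.

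A circulating tumor cell that colonizes the brain has to pass an endothelium closed by tight junctions, survive the attack of reactive astrocytes and spread along the vessels. ST6GALNAC5, PTGS2, ANGPTL4 and HBEGF have been tied to the first step. L1CAM, an adhesion molecule, lets tumor cells spread along the capillaries, while PCDH7 and the connexin GJA1 build gap junctions between tumor cells and astrocytes. LEF1 is a WNT transcription factor, CXCR4 is the receptor of the chemokine CXCL12, and LCN2 binds iron-loaded siderophores and serves tumor cells in the cerebrospinal fluid to collect iron.

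Reads on genes ranged from 16964504 to 18709028 per library. AKR1B10 itself stood at 108.3, 107.2 and 110.2 FPKM (reads scaled to gene length and library size) in BrM3-shAKR1B10 and at 798.7, 775.0 and 772.0 FPKM in BrM3-shNC, so that the targeted gene went with the labels (log2 fold change -2.85). Of 11 markers of a lung epithelial line, 8 reached 1 FPKM, keratins and EPCAM among them, whereas the lung lineage genes NKX2-1, NAPSA and SFTPB did not. Summed markers of astrocytes, microglia and leukocytes, endothelium, neurons and fibroblasts lay between 1.2 and 3.73 FPKM per library, against at least 3080 FPKM for the epithelial list. The astrocyte genes GFAP and S100B, the endothelial genes CLDN5 and KDR and the fibroblast genes COL1A2, DCN and LUM were at or near 0 in both groups. Without overlap between the groups, the sums in silenced and control libraries were 2.38 to 2.87 and 3.44 to 3.73 FPKM for 6 astrocyte genes, 1.29 to 1.5 and 1.57 to 1.96 for 6 microglia and leukocyte genes, 1.2 to 1.37 and 2.03 to 2.08 for 6 fibroblast genes, and 2.1 to 2.38 and 1.52 to 1.83 for 6 endothelial genes. Of these genes only SLC1A3, ALDH1L1, CDH5 and COL1A1 reached 1 FPKM on average. ALDH1L1 (log2 fold change -0.90) and COL1A1 (-0.67) were called lower and CDH5 (0.65) higher, and these carried most of the shift in their sums, while the endothelial gene PECAM1, under the filter, stood at 0.272 and 0.438 FPKM in silenced and control cells, against the direction of its list. Their part in the results was not tested.

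The 9 mediators split into 3 that PC9-BrM3 expressed and 6 that it hardly expressed. By FPKM, which corrects for gene length, LCN2 came first with a mean level of 65.0 over the 6 libraries, above 97.4% of protein-coding genes. PCDH7 followed at 15.9 FPKM and L1CAM at 14.8 FPKM, above 86.2% and 85.0% of protein-coding genes, and the ranges of these neighbours overlapped. The other members stayed under 1 FPKM. ANGPTL4 stood at 0.381 FPKM, LEF1 at 0.186 FPKM and PTGS2 at 0.183 FPKM, and the range of LEF1 over the libraries overlapped those of both others. CXCR4 at 0.0210 FPKM, ST6GALNAC5 at 0.00643 FPKM and GJA1 at 0.00276 FPKM came last and could not be ranked against each other, since each had no more than 3 reads in any library. A level of 3 reads, taken as the least that the depth can show, corresponds to between 0.013 FPKM for the long PCDH7 and 0.11 FPKM for the short LCN2, which covers counting error only.

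The promoters of the 3 expressed mediators and of GJA1, which was nearly silent, are shown, GJA1 because it shares a motif with LCN2. The windows are not aligned to each other, and a link between motifs and expression was not tested. They are RefSeq windows of GRCh38.p14 on the strand of the gene, from 250 bases before to 50 bases after the annotated start, in lower case with motif matches in capitals. The motifs searched on both strands were TGANTCA (AP-1), TGACGTCA (CRE), ACGTG (hypoxia response), CTTTGAT (TCF/LEF) and GGNNNTTCC (NF-kB like), and no matches overlapped.
LCN2, chr9:128149203-128149502, plus strand: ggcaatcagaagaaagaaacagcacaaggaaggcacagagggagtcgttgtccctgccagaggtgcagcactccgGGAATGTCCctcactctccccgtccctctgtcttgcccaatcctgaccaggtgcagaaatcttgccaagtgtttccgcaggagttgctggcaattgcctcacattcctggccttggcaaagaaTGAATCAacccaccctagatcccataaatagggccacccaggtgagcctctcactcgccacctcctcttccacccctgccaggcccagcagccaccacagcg
PCDH7, chr4:30720119-30720418, plus strand: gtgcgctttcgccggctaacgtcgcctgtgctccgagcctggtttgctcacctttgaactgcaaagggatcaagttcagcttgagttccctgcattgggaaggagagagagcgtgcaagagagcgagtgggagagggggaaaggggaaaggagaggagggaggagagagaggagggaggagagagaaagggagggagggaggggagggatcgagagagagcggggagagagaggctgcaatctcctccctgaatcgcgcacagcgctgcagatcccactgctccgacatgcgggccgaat
L1CAM, chrX:153875895-153876194, minus strand: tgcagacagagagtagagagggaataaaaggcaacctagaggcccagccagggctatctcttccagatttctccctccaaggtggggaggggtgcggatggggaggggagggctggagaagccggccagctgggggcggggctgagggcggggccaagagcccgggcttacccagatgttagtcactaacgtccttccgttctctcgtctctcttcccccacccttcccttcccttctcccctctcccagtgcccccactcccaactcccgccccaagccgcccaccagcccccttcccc
GJA1, chr6:121435396-121435695, plus strand: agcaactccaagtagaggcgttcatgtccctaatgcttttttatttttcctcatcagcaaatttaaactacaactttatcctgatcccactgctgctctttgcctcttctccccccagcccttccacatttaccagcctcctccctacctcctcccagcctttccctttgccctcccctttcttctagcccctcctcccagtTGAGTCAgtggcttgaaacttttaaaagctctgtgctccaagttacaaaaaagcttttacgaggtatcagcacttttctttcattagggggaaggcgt

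The LCN2 window held an NF-kB-like match that began 175 bases before the start and an AP-1 match that began 52 bases before it. The GJA1 window held an AP-1 match at nearly the same place, 48 bases before the start. An AP-1 match occurred in 7.71% of the 35116 promoters of the table and an NF-kB-like match in 20.1%. An NF-kB-like match also stood in a window of CXCR4. The windows of PCDH7 and L1CAM held none of the 5 motifs, nor did that of LEF1. ACGTG was found in the windows of ANGPTL4, ST6GALNAC5 and PTGS2, against 21.4% of all promoters, while CRE (1.85% of promoters) and TCF/LEF (2.62%) were found in none of the 12 windows of the 9 members. For every member but PCDH7 the start used for a window lies inside the gene as the deposited table places it, since the deposited gene begins farther upstream. The matches in the LCN2 and GJA1 windows thus lie inside those genes. L1CAM had another window, not shown.

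The 3 expressed mediators were each slightly higher after AKR1B10 silencing. A call needed an adjusted p below 0.05 together with a log2 fold change beyond 0.5 in either direction, by limma on log2(FPKM + 0.1). By limma 7.45% of 13150 genes tested were called lower and 5.83% higher, and none of the 3 members was among them, nor was any called by voom on the recovered reads of the same genes, which called 7.89% of them lower and 6.0% higher. All 3 passed the adjusted p alone, as 19.4% of genes did in the upward direction. All 3 also had an unadjusted p under 0.05, as 51.1% of genes did in either direction. In all 3 every BrM3-shAKR1B10 library lay above every BrM3-shNC library, as for 25.5% of genes. With 3 libraries against 3, the exact two-sided permutation test gave p = 0.1 for each of these 3 members, the smallest value this design allows. The median log2 fold change was 0.23 over the 3 members and -0.01 over all genes tested. In bulk RNA, more expressing cells and more RNA per cell cannot be told apart.

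**Figure D1:**
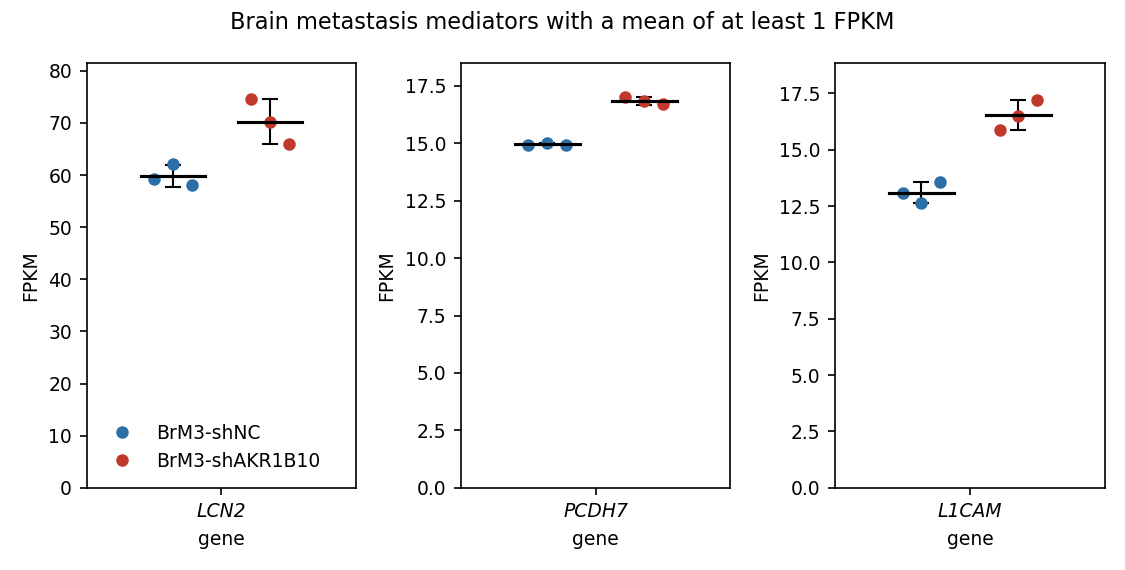
FPKM (y axis, from 0) of LCN2, PCDH7 and L1CAM in each library, one panel per gene, with blue points for BrM3-shNC and red points for BrM3-shAKR1B10; horizontal lines are means and bars are the SD of 3 libraries. In each panel the red points all lie above the blue points, by 17.5% for LCN2, 12.6% for PCDH7 and 26.2% for L1CAM on average.

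L1CAM (ENSG00000198910, chromosome X from 153861514 to 153886174, minus strand, GRCh38) had the largest change of the 3. Its level was 15.9, 16.5 and 17.2 FPKM in BrM3-shAKR1B10 and 13.1, 12.6 and 13.6 FPKM in BrM3-shNC, from 1554 to 2220 reads per library. The lowest silenced library thus lay above the highest control library. The means were 16.5 ± 0.674 (SD, n = 3) and 13.1 ± 0.472 FPKM (SD, n = 3), and the log2 fold change was 0.33 (SE 0.0459, 95% interval 0.223 to 0.443, adjusted p = 0.0017 by limma). The interval ended below 0.5, and 69.7% of genes tested moved less in either direction. LCA10, a transcript that overlaps L1CAM on the opposite strand, held 0 to 10 reads per library, and reads of the pair cannot be told apart where strand is not used. The protein-coding gene U52112.1 overlaps exons of L1CAM on the same strand and had 0 reads in every library. How reads on exons of both genes were counted is not given, so any effect on the level of L1CAM is not known.

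Most tested relatives and partners of L1CAM were not called, and those called went in both directions. Of 18 other genes in a list of L1 family adhesion molecules and L1CAM partners, 11 were tested and 8 of these were not called. By limma 1 was called higher and 2 lower, against 5.83% and 7.45% of all genes tested, with a median log2 fold change of 0.09. NRCAM, an adhesion molecule of the same family, rose from 4.92 ± 0.113 to 11.4 ± 0.302 FPKM (SD, n = 3 each; log2 fold change 1.19, adjusted p = 1.1e-05). ITGA5, the alpha subunit of a fibronectin receptor, fell from 3.70 to 1.69 FPKM (log2 fold change -1.09, adjusted p = 3.4e-04), and ALCAM, another adhesion molecule of the immunoglobulin superfamily, fell from 50.3 to 28.7 FPKM (log2 fold change -0.81, adjusted p = 4e-05). The integrin subunit ITGB1 stood at 65.2 and 61.1 FPKM in silenced and control cells (log2 fold change 0.09, adjusted p = 0.06), and EZR, which links L1CAM to actin and was the most abundant of the list, at 209.2 and 180.9 FPKM (log2 fold change 0.21, below the size of a call).

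Plasmin cleaves L1CAM, and tumor cells in the brain shield it with serpins that inhibit plasminogen activators. Of these serpins, neuroserpin (SERPINI1) was under the filter, with 18, 19 and 19 reads in BrM3-shAKR1B10 and 8, 9 and 12 reads in BrM3-shNC. Voom on genes with at least 10 reads did not call it, and SERPINB2 had no reads at all. Of 12 genes of plasminogen activation and its serpins, 9 were tested and PLAUR, the urokinase receptor, was the only one called. Of all genes tested, 7.45% were called lower. PLAUR fell from 4.90 ± 0.665 to 3.31 ± 0.344 FPKM (SD, n = 3 each), with a log2 fold change of -0.55 and an adjusted p of 0.01. Its change was no longer above 0.5 without BrM3-shAKR1B10 replicate 2 (-0.46) or without BrM3-shNC replicate 2 (-0.45). S100A10, which binds plasminogen at the cell surface and was the most abundant of these genes, stood at 252.6 and 243.4 FPKM (log2 fold change 0.05, adjusted p = 0.2).

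PCDH7 (ENSG00000169851, chromosome 4 from 30720415 to 31146805, plus strand), the protocadherin that brings tumor cell and astrocyte together, showed the smallest change of the 3, with the closest replicates. Its level was 17.0, 16.8 and 16.7 FPKM in BrM3-shAKR1B10 and 14.9, 15.0 and 14.9 FPKM in BrM3-shNC, from 3111 to 3720 reads per library. The libraries of each group lay close together, and the groups were well apart. The means were 16.9 ± 0.163 and 15.0 ± 0.0485 FPKM (SD, n = 3 each), with a log2 fold change of 0.17 (SE 0.0302, 95% interval 0.098 to 0.242, adjusted p = 0.0048 by limma). Of all genes tested, 43.4% moved less. PCDH1, also a delta protocadherin, was the only other one of 9 in that family to pass the filter, and it rose from 26.6 ± 1.03 to 39.9 ± 0.578 FPKM (SD, n = 3 each; log2 fold change 0.58, adjusted p = 7.8e-05). PCDH9, named after its values were seen, was under the filter, with 146, 170 and 136 reads in BrM3-shAKR1B10 and 77, 37 and 38 reads in BrM3-shNC. Voom on genes with at least 10 reads called it higher, like 5.78% of these genes (log2 fold change 1.64, 95% interval 1.21 to 2.06, adjusted p = 1.8e-06). Of the other delta protocadherins 6 had no reads in any library.

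GJA1 (ENSG00000152661, chromosome 6 from 121435577 to 121449727, plus strand), the connexin 43 gene whose channels PCDH7 helps to assemble, was all but absent. It had 1, 0 and 0 reads in BrM3-shAKR1B10 and 0, 0 and 0 reads in BrM3-shNC, and its pseudogene GJA1P1 had none either. A level of up to 0.052 FPKM could have been missed at this depth, so a change of GJA1 was not detectable. Some other connexins were expressed. Of 23 other connexins, pannexins and TJP1, 9 were tested and 6 of these were not called. By limma 2 were called higher and 1 lower, against 5.83% and 7.45% of all genes tested. GJA5, which encodes connexin 40, rose from 1.175, 0.844 and 0.949 FPKM in BrM3-shNC to 3.82, 4.44 and 4.01 FPKM in BrM3-shAKR1B10 (log2 fold change 1.95, SE 0.133, adjusted p = 9.6e-05). GJB5 rose from 8.78 to 16.2 FPKM (log2 fold change 0.88, adjusted p = 5.7e-05). GJC1 fell from 1.99 to 1.30 FPKM (log2 fold change -0.57, adjusted p = 0.0085), a change that was not above 0.5 without BrM3-shNC replicate 2 (-0.49). The most abundant gene of the list was the pannexin PANX2, at 22.2 and 27.3 FPKM (log2 fold change -0.30, adjusted p = 0.0035), below the size of a call.

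Through those junctions tumor cells pass cGAMP, the product of CGAS, to astrocytes, where it activates STING. Of 10 genes of cGAMP and STING signalling, 8 were tested and limma called none, nor did voom. An unadjusted p under 0.05 was reached by 5 of the 8, against 51.1% of all genes tested. Their median log2 fold change was -0.19. TMEM173, which encodes STING, stood at 5.60 ± 0.244 and 6.30 ± 0.501 FPKM in silenced and control cells (SD, n = 3 each; log2 fold change -0.16, adjusted p = 0.1), with overlapping groups. IRF3, the transcription factor downstream of it and the most abundant of the list, stood at 45.2 and 53.8 FPKM (log2 fold change -0.25, adjusted p = 0.026).

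LCN2 (ENSG00000148346, chromosome 9 from 128149071 to 128153455, plus strand) was the most abundant mediator and was also higher after silencing. Its level was 74.6, 70.2 and 66.0 FPKM in BrM3-shAKR1B10 and 59.3, 62.1 and 58.1 FPKM in BrM3-shNC, from 1678 to 2107 reads per library. The groups did not overlap, but the gap between the lowest silenced and the highest control library was smaller than the range within the silenced group. The means were 70.2 ± 4.34 and 59.8 ± 2.07 FPKM (SD, n = 3 each), and the log2 fold change was 0.23 (SE 0.0522, 95% interval 0.106 to 0.355, adjusted p = 0.013 by limma). Of all genes tested, 55.2% moved less. Its receptor gene SLC22A17 had 1 read over all 6 libraries. Of 12 receptors, partners and inducers of LCN2, 7 were tested and 1 was called higher, against 5.83% of all genes tested. This was IL1R1, the receptor of the inducer interleukin 1, from 1.45 ± 0.0877 to 2.19 ± 0.0256 FPKM (SD, n = 3 each; log2 fold change 0.56, adjusted p = 0.0034). With a pseudocount of 1 its log2 fold change was 0.38 and the call was lost. MMP9, a protease that LCN2 binds, had 13, 16 and 12 reads in BrM3-shAKR1B10 and 27, 53 and 47 reads in BrM3-shNC, and lay under the filter, while voom on genes with at least 10 reads called it lower (log2 fold change -1.54, adjusted p = 0.0018); it was named after its values were seen. CEBPB, a transcription factor that induces LCN2 and the most abundant of these genes, stood at 105.2 and 122.7 FPKM (log2 fold change -0.22, adjusted p = 0.01), below the size of a call.

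**Figure D2:**
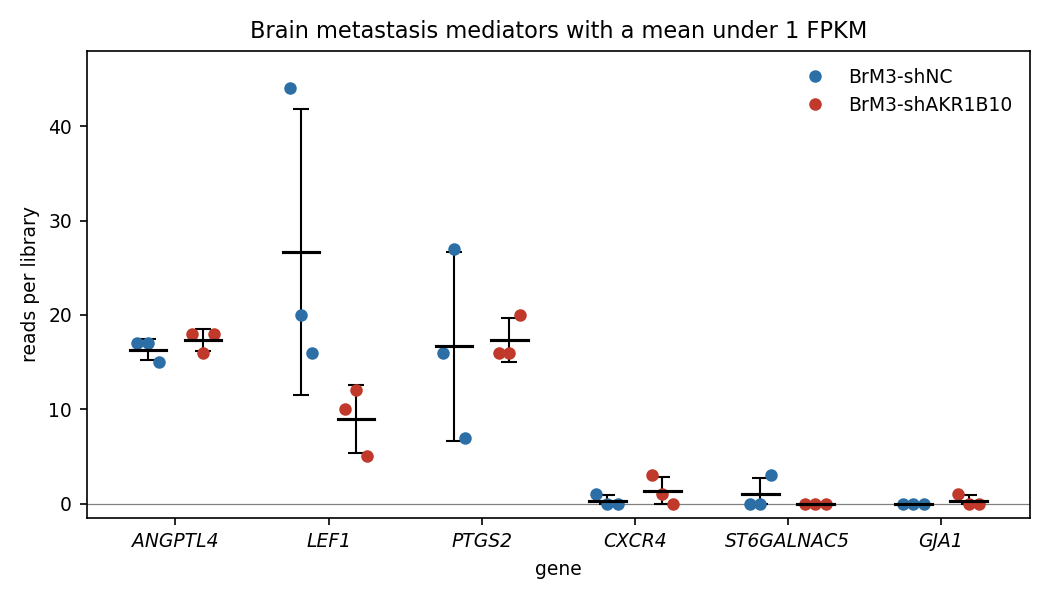
Reads per library (y axis) of the 6 mediators with a mean under 1 FPKM, with blue points for BrM3-shNC and red points for BrM3-shAKR1B10; horizontal lines are means and bars are the SD of 3 libraries, cut at 0. LEF1 is the only gene whose groups do not overlap, with 5 to 12 reads against 16 to 44, and CXCR4, ST6GALNAC5 and GJA1 have at most 3 reads in any library.

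LEF1 (ENSG00000138795, chromosome 4 from 108047545 to 108168956, minus strand) was the only mediator whose silenced libraries all lay below the controls, at a level too low for the test above. It had 10, 12 and 5 reads in BrM3-shAKR1B10 and 44, 20 and 16 reads in BrM3-shNC, or 0.106, 0.124 and 0.0526 FPKM against 0.447, 0.221 and 0.164 FPKM. The groups did not overlap in this direction, as for 21.1% of the 21834 genes with at least 10 reads in total, and the exact two-sided permutation test gave p = 0.1, the smallest value 3 libraries against 3 allow. BrM3-shNC replicate 1 stood far above the other 2 controls. Across genes this library also differed most from them, with a chi-square per gene of 4.88 and 5.42, against 2.45 to 2.70 for the other replicate pairs. The 27 reads of the silenced group against 80 of the control group gave a ratio of 0.338 (95% exact binomial interval 0.21 to 0.528, counting error only). Without the filter on low values, limma gave a log2 fold change of -0.91 with an adjusted p of 0.19. With limma's voom on whole reads recovered from FPKM, applied after seeing the data to the same 21834 genes, the log2 fold change was -1.46 (95% interval -2.44 to -0.49, adjusted p = 0.02), and LEF1 was called lower like 6.23% of these genes. The call was lost without BrM3-shAKR1B10 replicate 3 (log2 fold change -1.12, adjusted p = 0.11) or without BrM3-shNC replicate 1 (log2 fold change -1.05, adjusted p = 0.093), where the change stayed past 0.5 and the adjusted p did not stay below 0.05.

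Of 25 other LEF/TCF factors and WNT feedback and target genes, 14 were tested. By limma 2 were called lower and 1 higher, against 7.45% and 5.83% of all genes tested, with a median log2 fold change of -0.06. TCF7L1, a relative of LEF1 that mostly represses WNT targets, rose from 5.12 ± 0.228 to 7.51 ± 0.418 FPKM (SD, n = 3 each; log2 fold change 0.54, adjusted p = 6e-04), although without BrM3-shAKR1B10 replicate 3 the change was 0.499. TCF7L2, a main partner of beta-catenin in epithelium, stood at 1.94 and 2.0 FPKM (log2 fold change -0.05, adjusted p = 0.74). DKK1, a secreted WNT inhibitor, fell from 90.9 ± 2.61 to 53.5 ± 0.957 FPKM (SD, n = 3 each; log2 fold change -0.76, adjusted p = 2.1e-05). MYC, a growth regulator that WNT and many other signals induce, fell from 39.0 to 25.4 FPKM (log2 fold change -0.62, adjusted p = 2.9e-05), whereas CCND1, the most abundant of the list, stood at 138.2 and 129.4 FPKM (log2 fold change 0.09, adjusted p = 0.057). The feedback gene AXIN2, just under the filter, had 0.863 ± 0.102 and 1.04 ± 0.0616 FPKM in silenced and control cells (SD, n = 3 each), and HOXB9, which acts with LEF1 in lung adenocarcinoma metastasis, had 6 reads in each group.

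**Figure D3:**
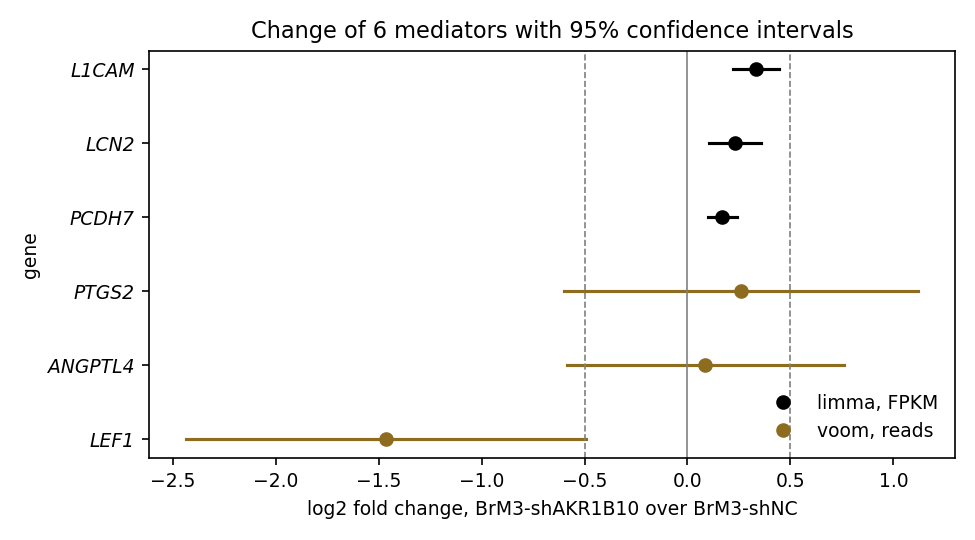
Log2 fold change of BrM3-shAKR1B10 over BrM3-shNC (x axis) with its 95% interval for 6 mediators, from limma on log2(FPKM + 0.1) in black and from voom on recovered reads in brown; dashed lines mark 0.5 in either direction. The intervals of L1CAM, LCN2 and PCDH7 lie between 0 and 0.5, those of PTGS2 and ANGPTL4 include 0, and that of LEF1 runs from -2.44 to -0.49.

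The 3 members tied to barrier passage, PTGS2, ANGPTL4 and ST6GALNAC5, were scarcely transcribed in either group. PTGS2 (ENSG00000073756, chromosome 1 from 186671791 to 186680427, minus strand), which encodes COX2, had 16, 16 and 20 reads in BrM3-shAKR1B10 and 16, 27 and 7 reads in BrM3-shNC. The control libraries spanned the silenced ones, and the ratio of summed reads was 1.04 (95% exact binomial interval 0.692 to 1.57). This interval and those of ANGPTL4 and CXCR4 cover counting error only, and the control libraries of PTGS2 ranged from 7 to 27 reads. ANGPTL4 (ENSG00000167772, chromosome 19 from 8363289 to 8374373, plus strand), a secreted protein that loosens endothelial junctions, had 18, 16 and 18 reads against 17, 17 and 15. Its groups overlapped as well, with a ratio of 1.06 (95% exact binomial interval 0.705 to 1.6). By voom the log2 fold changes were 0.26 for PTGS2 (95% interval -0.60 to 1.12, adjusted p = 0.69) and 0.09 for ANGPTL4 (95% interval -0.59 to 0.76, adjusted p = 0.88), and both intervals reached past 0.5 in each direction. The sign of PTGS2 depended on the library, with -0.26 without BrM3-shNC replicate 3 and 0.71 without BrM3-shNC replicate 2. The antisense gene RAB11B-AS1, which lies on the opposite strand and shares only the last base of ANGPTL4 (position 8374373), held 30 to 51 reads per library, and reads over that base cannot be told apart where strand is not used. ST6GALNAC5 (ENSG00000117069, chromosome 1 from 76867441 to 77065711, plus strand), a sialyltransferase otherwise found mainly in brain, had no reads in BrM3-shAKR1B10 and 0, 0 and 3 reads in BrM3-shNC, at or below the 3 reads taken as the least that can be shown.

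Many enzymes around these mediators were expressed, but limma called none of them. Of 23 other genes of prostaglandin synthesis, breakdown and receptors, 11 were tested, with 7 at an unadjusted p under 0.05 (51.1% of all genes tested) and a median log2 fold change of -0.04. By voom on the same genes 1 was called higher and 1 lower, and these are named after their values were seen. PTGS1, which encodes COX1, stood at 1.36 ± 0.0705 and 0.936 ± 0.0636 FPKM in silenced and control cells (SD, n = 3 each), with a log2 fold change by limma of 0.4954, just short of a call (adjusted p = 0.032). PTGER4, a prostaglandin E2 receptor, stood at 1.89 ± 0.255 and 2.67 ± 0.351 FPKM (SD, n = 3 each; log2 fold change -0.48, adjusted p = 0.029). PTGES, which turns the product of COX2 into prostaglandin E2, stood at 72.4 ± 0.745 and 74.6 ± 2.13 FPKM in silenced and control cells (SD, n = 3 each; log2 fold change -0.04, adjusted p = 0.34, and 0.01 after quantile scaling). AKR1B1, a paralog of AKR1B10 with prostaglandin F synthase activity and the most abundant of the list, stood at 424.0 ± 25.7 and 357.3 ± 9.63 FPKM (SD, n = 3 each; log2 fold change 0.25, adjusted p = 0.009). Of 23 other genes of sialic acid transfer and supply, 9 were tested, with 7 at an unadjusted p under 0.05, against the same 51.1%, none called by voom and a median of 0.17. CMAS, which activates sialic acid and was the most abundant, stood at 37.5 and 35.8 FPKM (log2 fold change 0.06, adjusted p = 0.47). Of 20 other genes around ANGPTL4 (angiopoietin-like proteins, lipases and PPAR factors), 7 were tested, with 3 at an unadjusted p under 0.05 (51.1% of all genes tested), none called by voom and a median of 0.06. HIF1A, the hypoxia factor and the most abundant, stood at 38.1 and 36.2 FPKM (log2 fold change 0.07, adjusted p = 0.15). By voom on genes with at least 10 reads in total, 1 gene was called higher and 1 lower of 19 in the sialic acid list, 1 higher and 3 lower of 18 in the prostaglandin list, and 2 lower of 14 in the ANGPTL4 list, against 5.78% higher and 6.23% lower of all 21834 genes. The last pair, named after their values were seen, were PDK4, a kinase that inhibits pyruvate dehydrogenase, with 27, 36 and 34 reads in BrM3-shAKR1B10 and 91, 88 and 79 reads in BrM3-shNC, and PLIN2, a lipid droplet coat protein, with 43, 42 and 47 reads against 81, 74 and 80. The groups of both genes did not overlap, as for 21.1% of the 21834 genes in this direction, whereas those of ANGPTL4 overlapped. In the same list CPT1A, a more abundant gene of fatty acid oxidation, stood at 17.5 and 17.4 FPKM (log2 fold change 0.01, adjusted p = 0.83), and PPARG, with a log2 fold change of 0.27 and an adjusted p of 0.0056, stayed below the size of a call. In the sialic acid and prostaglandin lists the calls added by this wider set were ST6GALNAC6 (higher, 50 reads against 13 in sum), ST6GALNAC2, PTGIS and PTGFR (lower). HBEGF, an EGFR ligand that has been grouped with COX2 and ST6GALNAC5, stood at 1.46, 2.18 and 2.52 FPKM in BrM3-shAKR1B10 and at 3.56, 2.76 and 3.23 FPKM in BrM3-shNC. It was called lower (log2 fold change -0.63, SE 0.201, adjusted p = 0.043), but of 6 fits that left out a library only that without BrM3-shAKR1B10 replicate 3 kept the call. The others gave adjusted p between 0.053 and 0.12, with log2 fold changes of -0.42 without BrM3-shAKR1B10 replicate 1 and of -0.55 to -0.73 otherwise, and the replicate block gave an adjusted p of 0.076.

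CXCR4 (ENSG00000121966, chromosome 2 from 136114349 to 136118165, minus strand) had 3, 1 and 0 reads in BrM3-shAKR1B10 and 1, 0 and 0 reads in BrM3-shNC. The groups overlapped and 4 reads against 1 gave a ratio of 4.0 with an interval from 0.396 to 197, so no change was detectable at this depth. Its ligand CXCL12 had no reads. The other receptor of CXCL12, ACKR3, which takes up the chemokine without classical G protein signalling, was expressed and rose, from 7.55, 6.76 and 6.97 FPKM in BrM3-shNC to 12.8, 13.5 and 13.6 FPKM in BrM3-shAKR1B10 (log2 fold change 0.90, SE 0.053, adjusted p = 5.6e-05). It was the only gene called by limma among 10 tested of 14 in the CXCL12 axis, against 5.83% of all genes tested called higher. The median of this list was -0.16, and RAC1, its most abundant gene, stood at 87.6 and 101.2 FPKM (log2 fold change -0.21, adjusted p = 0.0095). GNAI1, a G protein subunit downstream of CXCR4 and named after its values were seen, lay under the filter and was called higher by voom on genes with at least 10 reads (297, 313 and 329 reads against 169, 164 and 140, log2 fold change 0.99, adjusted p = 1.7e-07).

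A further list held 38 genes reported in brain metastasis, some of them also counted above. Of these, 25 were tested, 3 were called higher and 3 lower, with a median log2 fold change of -0.13. Besides ALCAM and HBEGF, the matrix glycoprotein TNC fell from 20.8 ± 0.356 to 4.98 ± 0.112 FPKM (SD, n = 3 each; log2 fold change -2.04, adjusted p = 1.9e-06). The receptor tyrosine kinase MET rose from 16.7 to 24.1 FPKM (log2 fold change 0.53, adjusted p = 2.8e-04, and 0.49 without BrM3-shNC replicate 3), the laminin receptor subunit ITGB4 from 22.7 to 33.5 FPKM (0.56 on the log2 scale, adjusted p = 1.2e-04) and ABAT, which degrades GABA, from 4.65 to 8.22 FPKM (0.81 on the log2 scale, adjusted p = 1.2e-04). FSCN1, an actin-bundling protein and the most abundant of the list, stood at 118.5 and 152.3 FPKM (log2 fold change -0.36, adjusted p = 0.0023). By voom on genes with at least 10 reads, MMP9 and RELN were called lower as well. Over all 12 lists, 218 relatives and partners were found besides the 9 mediators, 117 were tested, and 10 (8.55%) were called higher and 8 (6.84%) lower, close to the 5.83% and 7.45% of all genes tested, with a median log2 fold change of -0.04.

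**Figure D4:**
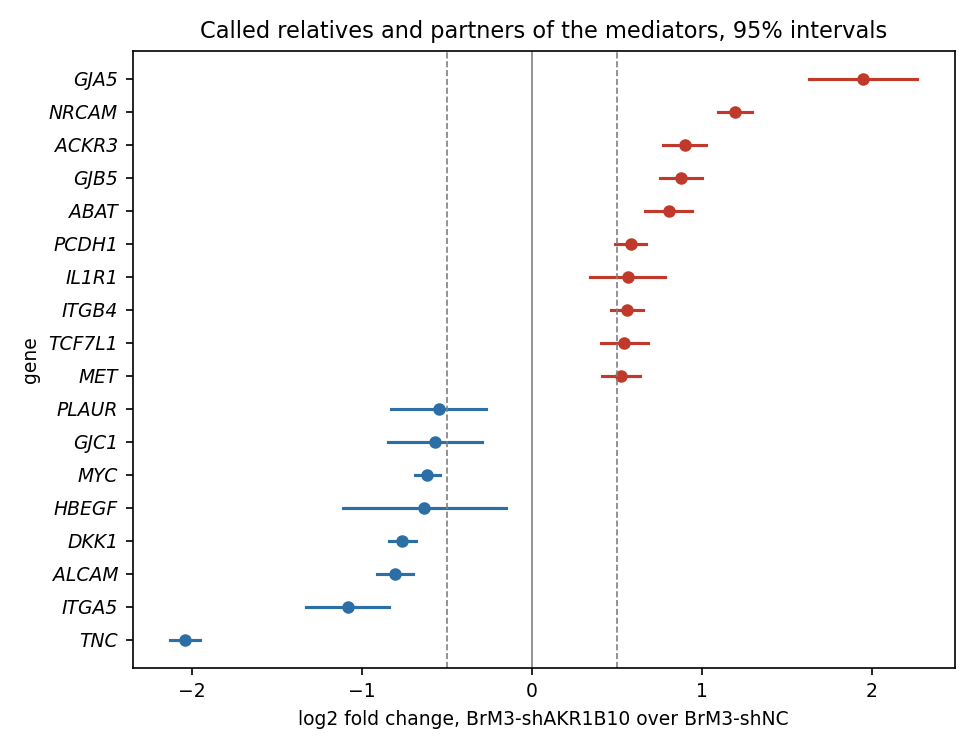
Log2 fold change of BrM3-shAKR1B10 over BrM3-shNC (x axis) with its 95% interval by limma for the 18 called relatives and partners of the mediators, sorted by size; red marks genes called higher, blue marks genes called lower, and dashed lines mark 0.5 in either direction. GJA5 at 1.95 and TNC at -2.04 stand at the ends of the 10 higher and 8 lower genes.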

How the data were processed

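RNA-seq of PC9-BrM3 was taken for 3 BrM3-shAKR1B10 and 3 BrM3-shNC libraries, grouped by their labels. Per the paper's methods the authors purified mRNA with poly-T beads, aligned clean paired-end reads with HISAT2 2.0.5 and counted them per gene with featureCounts 1.5.0-p3. The authors deposited FPKM for 58735 genes, which match GENCODE 29 (GRCh38) in identifier and position. Strand use is not given in the sources used here.

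Recovered reads lay within 0.01 of a whole number for 100% of the values checked, which left out the most abundant genes. Replicates differed by more than sampling noise (chi-square per gene 2.45 to 5.42). The pairs that held BrM3-shNC replicate 1 gave 4.88 and 5.42, and the others at most 2.70. A filter at a mean of 1 FPKM left 13150 genes, whose log2(FPKM + 0.1) was fitted by limma 3.58.1 (R 4.3.3, eBayes with a trend, Benjamini-Hochberg adjustment), so that fold changes of low genes are understated. Calls needed an adjusted p below 0.05 and a log2 fold change beyond 0.5 either way. Exact permutation tests, intervals and motif searches were run in Python 3.11.15 with scipy 1.17.1. The scripts were tested on simulated data.

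The 9 mediators and all lists were chosen with earlier results of these data known. Named genes were AKR1B10, the 9 mediators, listed partners, overlapping genes with reads, and in each list every called gene (at most 6) and the most abundant one. Genes that follow a called mediator were to be named too, but no mediator was called. One listed gene is not reported here and was left out of the counts of its list. Markers, GJA1P1, U52112.1, PTGS1, PTGER4, CPT1A, PPARG and genes called only by voom were named outside this rule. Alternatives were other pseudocounts, filters, scalings, variance models and thresholds, voom on reads, a replicate block and leaving out each library. Same-numbered libraries did not deviate together (correlations -0.0155, 0.0039 and 0.0038).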

Additional observations from a re-analysis of the deposited data

How the results depend on the processing

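The log2 fold changes of L1CAM, PCDH7 and LCN2 stayed positive in every alternative tried. With the fold change threshold dropped, all 3 were called (L1CAM 0.33, PCDH7 0.17, LCN2 0.23), so that members called higher went from 0 to 3. Without 1 library at a time they ranged from 0.30 to 0.36 for L1CAM, 0.16 to 0.18 for PCDH7 and 0.19 to 0.28 for LCN2. With TPM and quantile scaling they were 0.37 and 0.38, 0.21 and 0.22, and 0.27 and 0.28. With the replicate block the adjusted p were 0.0061, 0.023 and 0.02, and of the named genes called by limma only HBEGF lost its call (adjusted p = 0.076). Over all genes the replicate block left 967 called lower and 719 higher.

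With voom on genes with at least 10 reads, members called lower went from 0 to 1 (LEF1). Among all genes, 980 were called lower and 766 higher. These became 532 and 290 at a mean FPKM of at least 5, 205 and 168 at a fold change threshold of 1, and 3044 and 2548 with no such threshold. With TPM they were 873 and 902, so that higher calls outnumbered lower ones. Genes called higher were 497 with a pseudocount of 1 and 1261 with voom at 10 reads or more. Left-out libraries gave 947 to 971 lower and 656 to 759 higher. The sign turned for PTGES with quantile scaling (0.0088) and for TCF7L2 without BrM3-shAKR1B10 replicate 3 (0.0265, against -0.0926 without BrM3-shNC replicate 2) and for CPT1A without BrM3-shAKR1B10 replicate 3 (-0.0114) or BrM3-shNC replicate 3 (-0.0027), against up to 0.0379 without the others; the cause was not tested. PTGS2, by voom on reads, went from 0.26 to -0.26 without BrM3-shNC replicate 3 and to 0.71 without BrM3-shNC replicate 2. With a pseudocount of 1 the calls of PLAUR, GJC1, TCF7L1, IL1R1, HBEGF, COL1A1 and CDH5 were lost. Of 37 named relatives and partners, 10 kept their direction and their side of the threshold in every alternative, 14 lost a call in at least 1, 10 gained a call in at least 1, and 3 turned sign. Of the 14, 8 lost it only at the fold change threshold of 1, and 8 of the 10 gains came only from dropping the threshold of 0.5, outcomes that the size of the change alone sets. PTGS1 and PTGER4 were called under other alternatives too, voom among them. The depth leaves CXCR4, ST6GALNAC5 and GJA1 without a detectable difference.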
